A study of Rattus norvegicus and Mus musculus with 22 samples.

Results

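The SOCS family comprises cytokine-inducible proteins that bind activated cytokine receptors or their kinases and shut the signal down. Its 8 members, Socs1 to Socs7 and Cish, were taken by gene symbol from the deposited count tables. All 8 were listed in each rat table, among 22081 gene symbols, and in the mouse table, among 25683. All 8 passed the filter on low counts in every comparison. Total RNA of rat lung, of CD4-positive cells isolated from rat lung and of CD4-positive cells from mouse spleen had been sequenced in 22 libraries.

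The rats carried either an Il6 knockout (IL6KO) or the wild-type (WT) allele, and all of them had undergone SuHx. SuHx is the field's name for a model of pulmonary hypertension in which a VEGF receptor inhibitor is combined with hypoxia. No rat without SuHx is among the samples used here, so each comparison of genotypes sets IL6KO SuHx rats against WT SuHx rats. The CD4 isolates came from day 7, with 2 IL6KO and 2 WT libraries, and were obtained with magnetic beads (MACS). Whole lung was sampled at day 56, with 3 IL6KO and 3 WT libraries, and at day 7, with 3 IL6KO and 3 WT libraries. The mice carried the Ai14 reporter, which switches on tdTomato in cells that have expressed Cre, and a Cre driven by the SM22alpha promoter, which marks smooth muscle and can be active elsewhere. Their splenic CD4-positive cells were sorted into 3 tdTomato-positive and 3 tdTomato-negative fractions, a pair from each of 3 mice. The ages of the animals are not given in the labels.

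Interleukin 6 binds its receptor and the shared chain gp130, whose kinases activate STAT3, and STAT3 in turn switches on Socs3. SOCS3 then docks on gp130 and inhibits the attached kinases, so Socs3 transcript is widely read as a sign of recent STAT3 signaling. SOCS1 mainly restrains interferon and other JAK-dependent receptors, whereas SOCS2 and CIS (encoded by Cish) are induced by STAT5 and restrain growth hormone and interleukin 2 family signals.

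The STAT proteins bind palindromes of the form TTCNNNGAA, and the start regions of Cish and Socs1 are shown because they hold this spelling. RefSeq rat promoters (build GRCr8) matched 5 of the 8 members, namely Socs1, Socs3, Socs4, Socs6 and Cish. The 250 bases before each start were searched for TTCNNNGAA, which reads the same on both strands. The sequences below run 5′ to 3′ on the strand of the gene, and capitals mark the TTCNNNGAA matches.
Cish, plus strand, chr8:116850719-116850968: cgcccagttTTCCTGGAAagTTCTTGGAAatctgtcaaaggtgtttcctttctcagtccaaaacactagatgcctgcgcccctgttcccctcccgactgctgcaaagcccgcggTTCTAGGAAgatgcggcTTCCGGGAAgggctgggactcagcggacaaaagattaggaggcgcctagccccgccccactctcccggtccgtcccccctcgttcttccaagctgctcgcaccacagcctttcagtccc
Socs1, plus strand, chr10:5389324-5389573: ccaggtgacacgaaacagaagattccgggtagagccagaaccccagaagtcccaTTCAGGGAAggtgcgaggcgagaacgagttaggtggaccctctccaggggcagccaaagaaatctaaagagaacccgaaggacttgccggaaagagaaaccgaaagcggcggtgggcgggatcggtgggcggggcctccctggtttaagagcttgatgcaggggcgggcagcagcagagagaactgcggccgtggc

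The Cish window held 4 matches to TTCNNNGAA, whose first bases lay 241, 230, 136 and 119 bases before the start. The Socs1 window held 1, at 196 bases. The letters did not occur in the windows of Socs3, Socs4 and Socs6. Of the 33469 rat promoters in the same table, 7.67% held TTCNNNGAA at least once and 0.418% held it 2 or more times. These matches describe the letters of the window and are not measured binding. A window without them does not show that the gene has no such site elsewhere.

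Sequencing depth was 11477533 to 12930732 counts for CD4 isolates, 14415060 to 22961232 counts for lungs of day 56, 15011692 to 23590070 counts for lungs of day 7 and 8737138 to 12560401 counts for splenic cells. Il6 itself was too sparse to check every genotype label. The CD4 isolates had 8 and 17 Il6 counts in IL6KO and 48 and 20 in WT, day 56 lungs 0, 2 and 3 in IL6KO and 6, 6 and 5 in WT, and day 7 lungs 8, 5 and 2 in IL6KO and 5, 11 and 6 in WT. The genotypes overlapped in day 7 lung. In the CD4 isolates the closest libraries had 17 counts in IL6KO and 20 in WT. Il6 did not pass the test there (log2 fold change -1.41, edgeR adjusted p = 0.234). "IL6KO" and "WT" below thus stand for libraries labelled so. Spleen had 0 Il6 counts in each of 6 libraries, which allows up to 3 counts in each. The labels do not say that the replicates came from separate animals, apart from the numbered mice, so p-values measure the spread between these libraries.

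The isolates carried T cell transcripts but also those of other cells. Summed over the 15 T cell markers, they reached 3818 to 4150 CPM (counts scaled to library size) in IL6KO isolates and 4739 to 4759 CPM in WT isolates, against 93.8 to 119 CPM in IL6KO and 72.5 to 103 CPM in WT whole lung at day 7. The 12 macrophage markers summed to 10014 to 14155 CPM in IL6KO isolates and 9085 to 9339 CPM in WT isolates, with Marco at 0 in WT, and rat macrophages can carry CD4 on their surface. Splenic fractions had 7482 to 7702 CPM of T cell markers when tdTomato-positive and 7637 to 7952 CPM when negative. Their macrophage markers summed to 84.1 to 110 CPM in tdTomato-positive and 44.8 to 68.3 CPM in tdTomato-negative cells, with Msr1 at 0 in both. The rat isolates are therefore called isolates here, and in such bulk samples fewer cells of a type and less RNA per cell cannot be told apart.

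In the day 7 CD4 isolates, 3 of the 8 members fell in IL6KO: Socs3, Socs1 and Socs5. Of the 12243 genes tested, 2.91% were called lower and 6.4% in either direction. The median log2 fold change of the 8 members was -0.48, beside -0.0042 over all genes tested. Socs3, the feedback inhibitor at gp130, had 93.8 and 118 CPM in IL6KO isolates, against 333 and 265 CPM in WT isolates. The genotypes were far apart, with the higher IL6KO library well below the lower WT library. Socs3 stood at 0.354 of its WT level, a log2 fold change of -1.50 (SE 0.16, edgeR adjusted p = 0.00897).

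Socs1, the inhibitor of interferon receptor kinases, had 5.46 and 5.55 CPM in IL6KO isolates, against 12.9 and 9.58 CPM in WT isolates. The IL6KO libraries nearly coincided and lay below both WT libraries. Its log2 fold change was -1.02 (SE 0.22, edgeR adjusted p = 0.0365). Socs5, which has been linked to EGF and interleukin 4 receptor signaling, had 83.8 and 90.9 CPM in IL6KO isolates, against 128 and 112 CPM in WT isolates. Its groups did not overlap either, and it fell by 0.46 on the log2 scale (SE 0.10, edgeR adjusted p = 0.0398).

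The STAT5-induced members did not pass the test in the isolates. Cish had 29.1 and 30.9 CPM in IL6KO isolates, against 48.3 and 36.9 CPM in WT isolates, with a log2 fold change of -0.51 (SE 0.14, edgeR adjusted p = 0.080). Socs2 had 15.8 and 18.7 CPM in IL6KO isolates, against 38.1 and 23.1 CPM in WT isolates, with -0.82 (SE 0.27, edgeR adjusted p = 0.155). Single WT libraries moved both: without WT library 1, Socs2 was at -0.42 (adjusted p = 0.361) and Cish at -0.30 (0.362), and without WT library 2, Socs2 was at -1.14 and called (0.0496) and Cish at -0.69 (0.0737). Both had every IL6KO library below every WT library, which makes 5 members without overlap in the lower direction. Over all genes tested, 28.8% were lower without overlap and 55.9% were without overlap in either direction.

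The remaining members did not pass the test either. Socs4, which acts on EGF receptor signaling, had 24.8 and 26.1 CPM in IL6KO isolates, against 25.7 and 27.1 CPM in WT isolates. Socs6, which binds the receptor kinase Kit, had 18.5 and 19.7 CPM in IL6KO isolates, against 19.1 and 18.3 CPM in WT isolates. Socs7, a partner of insulin receptor substrates, had 6.13 and 7.98 CPM in IL6KO isolates, against 5.16 and 6.41 CPM in WT isolates. The groups overlapped for all 3, with log2 fold changes of -0.054, 0.032 and 0.28 and 95% intervals from -0.31 to 0.20, from -0.26 to 0.32 and from -0.27 to 0.84.

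**Figure D1:**
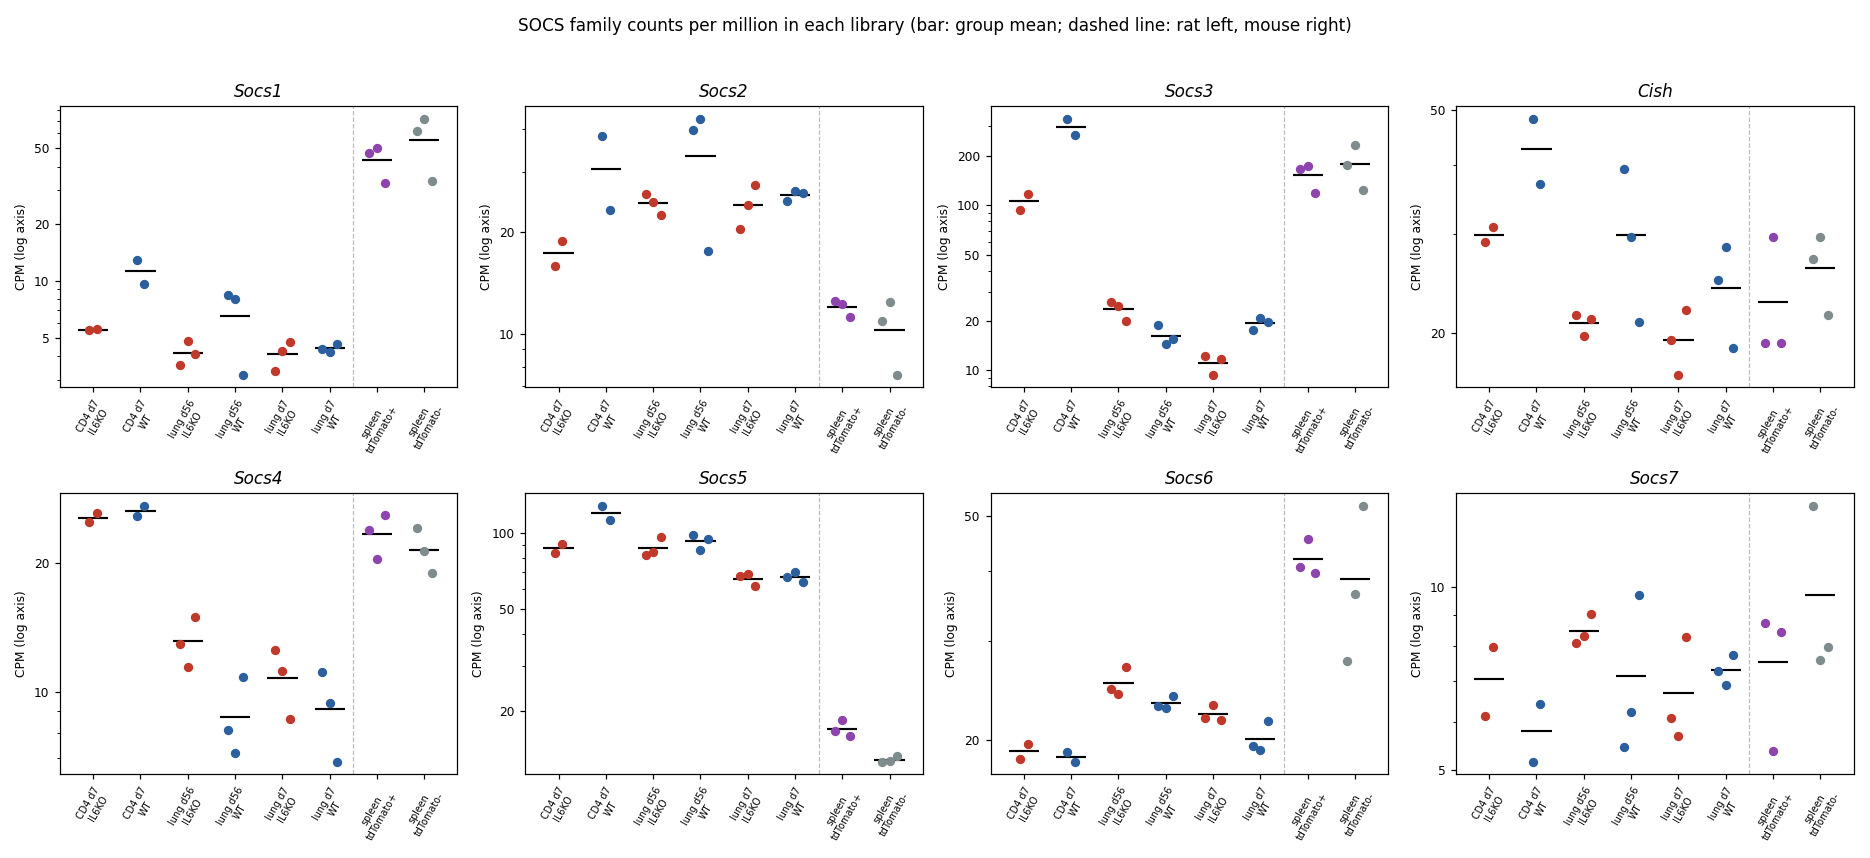
CPM (log axis) of each SOCS family gene in every library, with a bar at the group mean; CD4 d7 is the rat lung CD4 isolate at day 7, lung is whole rat lung and spleen is sorted mouse CD4 cells, right of the dashed line. Socs3 stood at 93.8 and 118 CPM in IL6KO isolates and 333 and 265 CPM in WT isolates, and the axes differ between panels.

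Socs3 kept its call in the isolates under all 10 alternative settings, with adjusted p up to 0.0492 when WT library 1 was left out. Socs1 lost its call without WT library 1 (adjusted p = 0.239), WT library 2 (0.0804) or IL6KO library 1 (0.0548), and with limma-voom (0.0501), and Socs5 without WT library 1 (0.261), WT library 2 (0.101) or IL6KO library 1 (0.0717).

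Markers of several cell types differed between the same isolates. Of the 15 T cell markers tested, 5 were called lower in IL6KO, and both CD8 T cell markers tested were, with summed levels of 14 to 17.1 CPM in IL6KO isolates and 107 to 141 CPM in WT isolates. Of the same 15, Cd4 itself went the other way, at 0.27 log2 units, and was not called (edgeR adjusted p = 0.0831). Cd4 had 737 to 771 CPM in IL6KO isolates and 610 to 641 CPM in WT isolates. Epithelial markers summed to 872 to 955 CPM in IL6KO and 2550 to 3533 CPM in WT isolates, with 6 of 9 called lower. Neutrophil markers summed to 389 to 487 CPM in IL6KO and 564 to 1219 CPM in WT isolates, with 1 of 6 tested called lower, and erythroid markers to 8012 to 16810 CPM in IL6KO and 2499 to 3752 CPM in WT isolates, with 1 of 7 called higher. Smooth muscle markers summed to 17.8 to 22.8 CPM in IL6KO and 44.0 to 44.4 CPM in WT isolates, with 3 of 5 tested called lower. No marker on these 6 lists was at 0 in either genotype, and their part in the SOCS results was not tested. Endothelial markers summed to 114 to 115 CPM in IL6KO and 135 to 148 CPM in WT isolates, with Flt1 and Cdh5, 2 of 7 tested, called lower and Cldn5 at 0 in IL6KO. Fibroblast markers summed to 64.7 to 93.9 CPM in IL6KO and 116 to 119 CPM in WT isolates, with 0 of 5 called by edgeR, 2 of them (Dcn and Col3a1) at an unadjusted p under 0.05, and none at 0. B cell markers summed to 133 to 143 CPM in IL6KO and 106 to 109 CPM in WT isolates, with Blk called higher, and natural killer cell markers to 174 to 279 CPM in IL6KO and 217 to 219 CPM in WT isolates, with Nkg7 called lower, 1 of 7 tested on each list and none at 0. The part of these 4 lists was not tested. Of the macrophage markers, whose sums are given above, 3 of 11 tested were called higher in IL6KO isolates, and their part was not tested either. Per 1000 CPM of summed T cell markers, Socs3 had 22.6 and 30.8 CPM in IL6KO isolates, against 70.3 and 55.7 CPM in WT isolates. On that scale Socs1 had 1.32 and 1.45 CPM in IL6KO isolates, against 2.71 and 2.01 CPM in WT isolates. Socs5 had 20.2 and 23.8 CPM in IL6KO isolates, against 26.9 and 23.6 CPM in WT isolates. Cish had 7.00 and 8.09 CPM in IL6KO isolates, against 10.2 and 7.76 CPM in WT isolates on that scale, and Socs2 had 3.81 and 4.91 CPM in IL6KO isolates, against 8.05 and 4.86 CPM in WT isolates. Socs3 and Socs1 were thus lower without overlap relative to T cell markers, as 8.39% of all genes were, whereas Socs5, Cish and Socs2 overlapped. Socs4, Socs6 and Socs7 were higher without overlap on that scale, as 60.2% of all genes were.

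The wider JAK-STAT pathway in the isolates did not move as a block. Among STAT3 targets, 5 of 25 fell and 1 rose, and the list's median log2 fold change was -0.065, beside -0.0042 over all genes. The acute-phase genes Lcn2 (lipocalin) and Fgg (a fibrinogen chain) led it. Lcn2 had 5.26 ± 0.292 CPM in IL6KO isolates and 29.9 ± 0.875 CPM in WT isolates (SD, n = 2 each). Fgg had 1.83 ± 0.479 CPM in IL6KO isolates and 11.2 ± 1.56 CPM in WT isolates (SD, n = 2 each). Their log2 fold changes were -2.51 (edgeR adjusted p = 0.000379) and -2.61 (edgeR adjusted p = 0.00514). On its own table's scale, whole lung at day 7 had 269 to 290 CPM of Lcn2 in IL6KO and 344 to 685 CPM in WT, and 60.9 to 72.2 CPM of Fgg in IL6KO and 100.3 to 118 CPM in WT. The isolates in which both fell also had fewer epithelial transcripts, as given above, and the part of these in the 2 genes was not tested.

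Among 14 other negative regulators, 2 rose, namely the adaptor Sh2b3 (0.71, edgeR adjusted p = 0.00835) and the phosphatase Ptpn6 (0.88, edgeR adjusted p = 0.00897).

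The receptors and kinases around the family showed few calls. Of 12 gp130 family ligands and receptors, 1 rose, Il6r, which encodes the ligand-binding chain for interleukin 6. Il6r had 285 ± 3.10 CPM in IL6KO isolates and 196 ± 11.1 CPM in WT isolates (SD, n = 2 each), and rose by 0.54 (edgeR adjusted p = 0.0152). Of 10 JAK and STAT genes, Stat2 rose by 0.48 (edgeR adjusted p = 0.0342). Of 25 other receptors, Il2ra, the high-affinity interleukin 2 receptor chain and a STAT5 target, fell by 0.72 (edgeR adjusted p = 0.00888) and Csf2ra rose by 0.59 (edgeR adjusted p = 0.0307). Of 12 STAT5 targets, 1 fell, the kinase gene Pim2 (-0.89, edgeR adjusted p = 0.00835). None of the 9 genes of the ubiquitin ligase that joins the SOCS box passed the test, and their median was -0.072.

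In whole lung at day 7, Socs3 was the 1 member of 8 that fell in IL6KO. Of the 14368 genes tested there, 1.16% were called lower and 2.09% in either direction, and the median log2 fold change was -0.098 over the members and 0.0031 over all genes. Socs3 had 12.2, 9.44 and 11.7 CPM in IL6KO lungs, against 17.6, 20.9 and 19.6 CPM in WT lungs. All 3 IL6KO lungs lay below the lowest WT lung. The log2 fold change was -0.80 (SE 0.13, edgeR adjusted p = 0.0178), which puts Socs3 at 0.574 of its WT level. The call was lost when WT library 2 (adjusted p = 0.0723) or IL6KO library 2 (0.0563) was left out.

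The other inducible members overlapped between genotypes at day 7. Socs1 had 3.32, 4.24 and 4.76 CPM in IL6KO lungs, against 4.37, 4.20 and 4.62 CPM in WT lungs. Cish had 19.4, 16.8 and 22.0 CPM in IL6KO lungs, against 24.9, 28.5 and 18.8 CPM in WT lungs. Their log2 fold changes were -0.095 (95% interval -0.49 to 0.30) and -0.31 (-0.66 to 0.041). Socs2 at -0.10, Socs4 at 0.24, Socs5 at -0.020 and Socs7 at -0.12 also overlapped. Socs6 was without overlap in the higher direction, at 21.9, 23.1 and 21.7 CPM in IL6KO lungs, against 19.6, 19.2 and 21.6 CPM in WT lungs, a difference of 0.14 that did not pass (edgeR adjusted p = 0.546). Socs3 and Socs6 were thus 2 members of 8 without overlap, where 18.8% of all genes were, 9.66% lower and 9.09% higher.

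Natural killer cell markers rose in the same IL6KO lungs, 6 of 7 by the same test, with summed levels of 106 to 137 CPM in IL6KO lungs and 39.9 to 57.8 CPM in WT lungs. Mast cell markers were lower, 2 of 7 called, with 17.7 to 26.1 CPM in IL6KO lungs and 36.7 to 59.6 CPM in WT lungs. Neither list had a marker at 0 in either genotype. Sums of fibroblast markers were also lower without overlap, 5055 to 5995 CPM in IL6KO and 6131 to 7703 in WT. Smooth muscle markers were too, 1797 to 1863 and 1972 to 2162 CPM. CD8 T cell sums were higher without overlap, 13.6 to 18.3 CPM in IL6KO and 9.81 to 13.1 in WT. So were B cell sums, 58.6 to 78.1 and 48.5 to 57.9 CPM, and platelet sums, 18.2 to 26.8 and 14.5 to 17.6 CPM. None had a marker at 0, and the other sums overlapped. The part of all these lists in the Socs3 result was not tested. In the pathway lists Lifr, the receptor chain for leukemia inhibitory factor, rose by 0.53 (edgeR adjusted p = 0.0208), and the receptor chains Il2rb and Il12rb2, both used by lymphocytes, rose by 1.02 (edgeR adjusted p = 0.0119) and 1.27 (edgeR adjusted p = 0.042). Fgg fell by 0.78 (edgeR adjusted p = 0.00569) and was the 1 STAT3 target of 23 called.

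At day 56, Socs3 lay on the other side of WT, although no member passed the test. Socs3 had 25.8, 24.7 and 19.8 CPM in IL6KO lungs, against 18.8, 14.5 and 15.4 CPM in WT lungs. Every IL6KO lung was above every WT lung, and the log2 fold change was 0.53 (SE 0.15, unadjusted p = 0.00967, edgeR adjusted p = 0.401, from the fit across all genes). Socs4 had 13, 11.4 and 14.9 CPM in IL6KO lungs, against 8.16, 7.21 and 10.8 CPM in WT lungs. It too was without overlap, at 0.59 (SE 0.19, unadjusted p = 0.0164, edgeR adjusted p = 0.414, from the fit across all genes).

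The count of members called by edgeR at day 56 was 0 of 8, with 3 at an unadjusted p under 0.05, and it was also 0 with DESeq2 and limma-voom. Over all 14475 genes tested, 0.0138% were called by edgeR, 16.8% were without overlap in either direction and 8.3% were higher without overlap. Beside Socs3 and Socs4, Socs6 was without overlap, in the higher direction, at 0.12 (edgeR adjusted p = 0.589). The median log2 fold change was 0.017 over the members and -0.012 over all genes, and none of the pathway lists reported here held a call.

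Socs1, Socs2 and Cish shared a pattern across the day 56 WT lungs. Socs1 had 3.59, 4.8 and 4.11 CPM in IL6KO lungs, against 8.37, 8.05 and 3.19 CPM in WT lungs. Socs2 had 25.8, 24.5 and 22.4 CPM in IL6KO lungs, against 39.8, 42.9 and 17.6 CPM in WT lungs. Cish had 21.5, 19.7 and 21.2 CPM in IL6KO lungs, against 39.3, 29.6 and 20.9 CPM in WT lungs. WT libraries 1 and 2 stood above all IL6KO lungs for each gene, and WT library 3 lay below all of them for Socs1 and Socs2 and inside their range for Cish.

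The spread between the day 56 lungs was wider in WT for these genes, and a difference in spread was not tested. At day 7 the coefficient of variation was 17.7% for Socs1, 14.8% for Socs2 and 13.2% for Cish in IL6KO lungs. In WT lungs of day 7 it was 4.85%, 3.53% and 20.3% for the same genes. At day 56 it was 14.6% for Socs1, 7.17% for Socs2 and 4.60% for Cish in IL6KO lungs. In WT lungs of day 56 it was 44.3%, 41.3% and 30.8%. With WT library 3 left out, 4 members passed the test: Socs1 at -0.97 (edgeR adjusted p = 0.0302), Socs2 at -0.77 (0.0143), Cish at -0.73 (0.0331) and Socs4 at 0.78 (0.0407), and 1268 genes were called in place of 2. WT library 3 had a summed level of 8 heart muscle markers of 406 CPM, where the other WT lungs had 47.5 and 122 CPM and the IL6KO lungs ran from 309 to 634 CPM. None of these markers was at 0 in either genotype, and their part in the result was not tested.

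**Figure D2:**
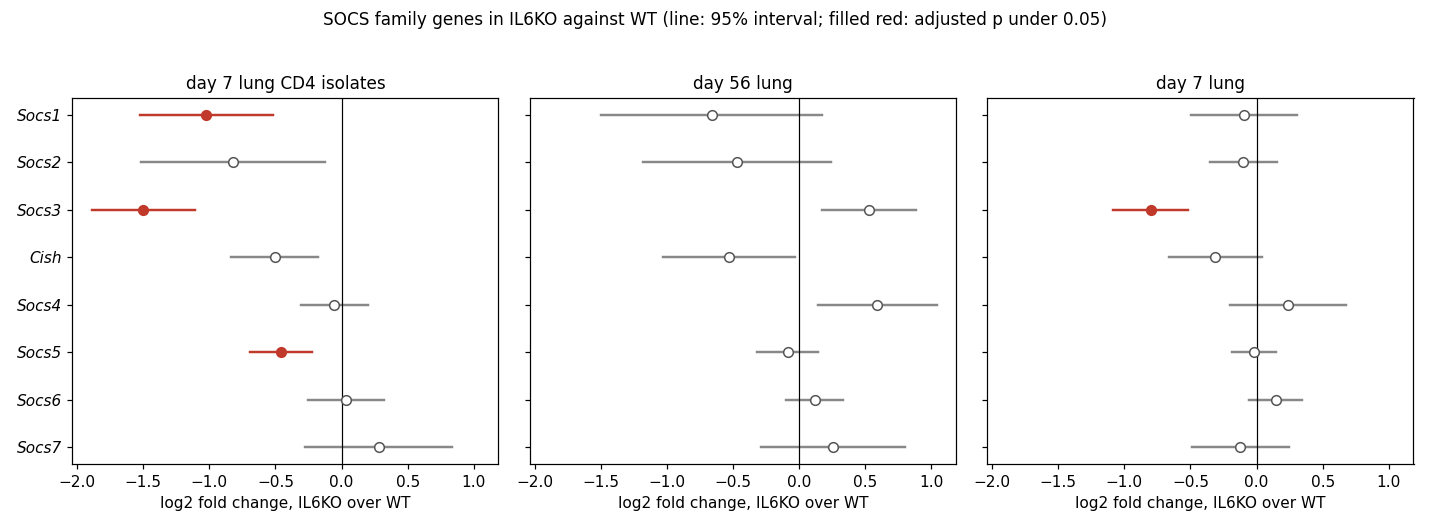
Log2 fold change of IL6KO over WT for each SOCS family gene in day 7 CD4 isolates, day 56 lung and day 7 lung; lines are 95% intervals and filled red points have an adjusted p under 0.05. Socs3 lay at -1.50 in isolates and -0.80 in day 7 lung, both called, and at 0.53 in day 56 lung, where no member was called.

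**Figure D3:**
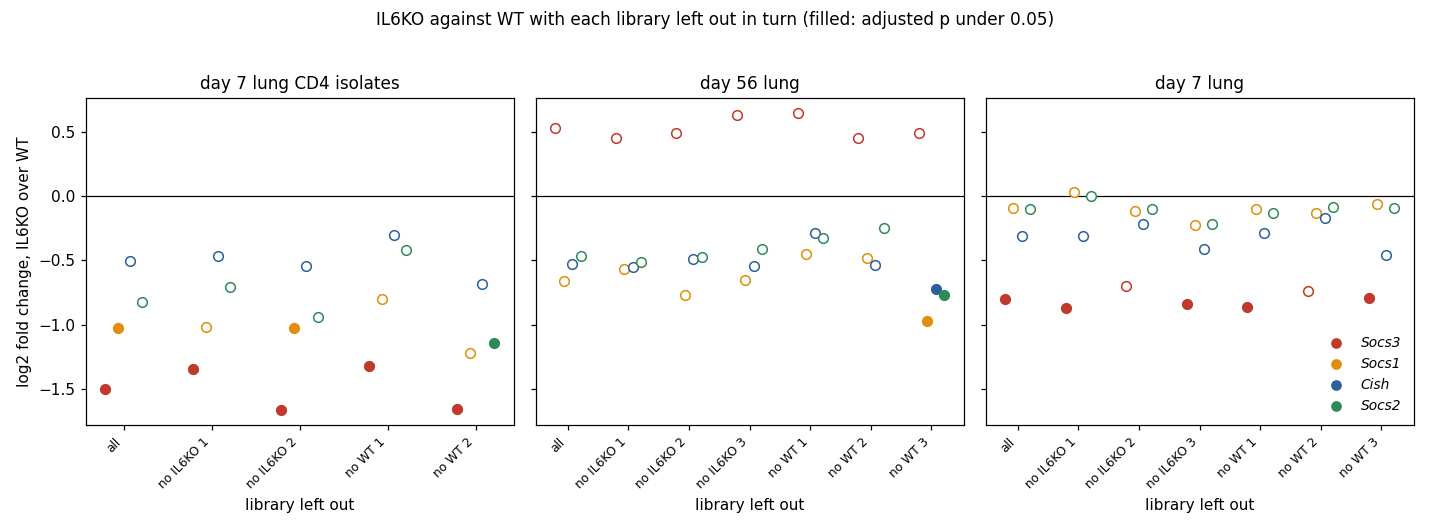
Log2 fold change of IL6KO over WT for Socs3, Socs1, Cish and Socs2 with each library left out in turn; filled points have an adjusted p under 0.05. Without day 56 WT library 3, Socs1, Socs2 and Cish moved to -0.97, -0.77 and -0.73 and passed the test.

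The IL6KO effect on Socs3 was set against itself on both days in a fit of all 12 lungs. On the common scale of that fit, Socs3 averaged 24.6 ± 3.26 CPM at day 56 and 12 ± 1.6 CPM at day 7 in IL6KO lungs, and 17 ± 2.49 CPM at day 56 and 20.8 ± 1.74 CPM at day 7 in WT lungs (SD, n = 3 each). The effect at day 56 exceeded that at day 7 by 1.33 log2 units (SE 0.20, unadjusted p = 2.64e-05). It ranked 3 among 13865 genes by p, but the adjusted p was 0.122 with edgeR, which called 0 genes (0% of those tested, 1043 at an unadjusted p under 0.05). DESeq2 called 47 genes, Socs3 among them (1.33, adjusted p = 1.84e-05), and limma-voom called 0. Leaving out day 56 WT library 3, edgeR called Socs3 (1.29, adjusted p = 0.00868) and Socs2 (-0.67, adjusted p = 0.0396), with 597 genes called in place of 0. No other member had an unadjusted p under 0.05.

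Within a genotype, the days lie in separate tables, so day and table cannot be told apart. In IL6KO lungs, day 56 exceeded day 7 by 1.04 log2 units for Socs3 (SE 0.15, edgeR adjusted p = 0.000592) and by 0.37 for Socs5 (SE 0.087, edgeR adjusted p = 0.0191), 2 of 8 members where 3.4% of all genes were called higher and 8.32% in either direction. In WT lungs, Socs5 was 0.43 higher at day 56 (SE 0.087, edgeR adjusted p = 0.00566), 1 of 8 members where 6.72% of all genes were called higher and 14.8% in either direction. Without day 56 WT library 3, Socs1 (0.87, edgeR adjusted p = 0.00483) and Socs2 (0.65, edgeR adjusted p = 0.00218) also passed in WT. With each library left out in turn, 1235 to 3656 genes were called between days in WT lungs, in place of 2048. Socs3 differed by -0.29 in WT lungs (SE 0.14, edgeR adjusted p = 0.198). Socs5 averaged 92.0 ± 8.37 CPM at day 56 and 71.1 ± 3.74 CPM at day 7 in IL6KO lungs, and 97.2 ± 7.40 CPM at day 56 and 72.1 ± 2.77 CPM at day 7 in WT lungs (SD, n = 3 each). Its call in IL6KO lungs was lost without day 56 IL6KO library 3 (adjusted p = 0.0761) or any of the day 7 IL6KO libraries (0.0573, 0.0568 and 0.0642).

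Socs3 was the member that stood out most in the isolates relative to whole lung of the same day. On the common scale of these 10 libraries it averaged 114 ± 16.9 CPM in IL6KO isolates and 10.4 ± 1.37 CPM in IL6KO lungs, and 343 ± 57.5 CPM in WT isolates and 18.1 ± 1.54 CPM in WT lungs (SD, n = 2 isolates and 3 lungs each). The isolates were 3.45 log2 units higher than lung in IL6KO (SE 0.14, edgeR adjusted p = 4.09e-10) and 4.24 higher in WT (SE 0.14, edgeR adjusted p = 6.84e-11). Isolates and whole lung lie in separate tables, and the isolates went through MACS. Kind of cell, handling and table thus cannot be told apart in these comparisons.

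In IL6KO, 5 of 8 members were higher in isolates, where 36.4% of the 14772 genes tested were. In WT, 6 of 8 members were higher, where 37.7% of all genes were. In either direction 79.5% of genes were called in IL6KO and 81.4% in WT. The median log2 fold change over all genes was -0.12 in both genotypes, and over the members 0.62 in IL6KO and 1.12 in WT. Socs4 was higher by 1.45 in IL6KO and 1.83 in WT, Cish by 0.83 in IL6KO and 1.11 in WT, Socs1 by 0.63 in IL6KO and 1.64 in WT, and Socs5 by 0.61 in IL6KO and 1.13 in WT. Socs2 passed in WT, at 0.55, and not in IL6KO, at -0.26. Socs6 and Socs7 did not pass in either genotype, with values from -0.038 to 0.28. The Socs2 call in WT was lost with a filter of at least 5 CPM on the mean (0.40, edgeR adjusted p = 0.0665), and without day 7 lung WT library 1 (0.0773) or 2 (0.0564) or CD4 WT library 1 (0.353).

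**Figure D4:**
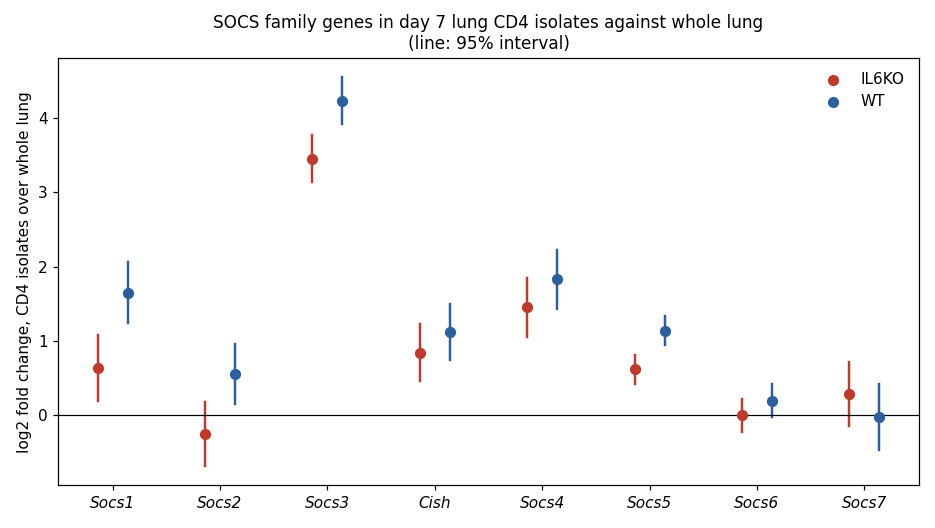
Log2 fold change of day 7 CD4 isolates over whole lung for each SOCS family gene, in IL6KO and WT rats; lines are 95% intervals. Socs3 was the highest, at 3.45 in IL6KO and 4.24 in WT, and Socs6 and Socs7 lay near 0.

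The IL6KO effect was then compared between isolates and whole lung in that fit. For Socs3 it was lower in isolates by 0.79 log2 units (-0.79, SE 0.20, edgeR adjusted p = 0.0385), and for Socs5 by 0.52 (-0.52, SE 0.13, edgeR adjusted p = 0.0302), 2 of 8 members where 4.55% of all genes were called lower and 6.42% in either direction. For Socs1 the difference was -1.01 (SE 0.28, edgeR adjusted p = 0.0521). The median over all genes was -0.11, and over the members -0.45. With 1 library left out at a time, from 0 to 4 members were called. The Socs3 call was held without CD4 WT library 2 (adjusted p = 0.0251) or CD4 IL6KO library 2 (0.0376) and was lost without any of the other libraries (0.0545 to 0.16). The Socs5 call was held without CD4 WT library 2 (0.0276) or day 7 lung IL6KO library 3 (0.0196) and was lost without any of the other libraries (0.0606 to 0.14).

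In mouse splenic CD4 cells, no SOCS family gene passed the test between the tdTomato fractions. In the fit that ignores the mouse, edgeR called 0 of 8 members, where it called 0.00902% of the 11083 genes tested. In that fit 0 members had an unadjusted p under 0.05. DESeq2 and limma-voom also called 0 members, as did edgeR with the mouse as a block. Socs3 had 166, 172 and 119 CPM in tdTomato-positive cells, against 176, 232 and 123 CPM in tdTomato-negative cells of mice 1, 2 and 3. Socs1 had 47.0, 50.3 and 32.7 CPM in tdTomato-positive cells, against 61.8, 71.3 and 33.6 CPM in tdTomato-negative cells. The tdTomato-positive fraction was below the negative one in 3 of 3 mice for both genes, the groups overlapped, and both fractions of mouse 3 were the lowest of their group. The log2 fold changes were -0.22 (95% interval -0.63 to 0.20) and -0.36 (-0.88 to 0.17) in the fit that ignores the mouse. With the mouse as a block they were -0.19 (SE 0.12) and -0.32 (SE 0.16), with an edgeR adjusted p of 0.964 for both.

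Socs5 was the 1 member whose fractions did not overlap, where 8.56% of all genes did not overlap and 4.12% were higher without overlap. Socs5 had 16.6, 18.4 and 15.9 CPM in tdTomato-positive cells, against 12.6, 12.7 and 13.2 CPM in tdTomato-negative cells. The positive fraction was above the negative one in 3 of 3 mice. The fit that ignores the mouse gave 0.40 log2 units (SE 0.24, unadjusted p = 0.118, edgeR adjusted p = 0.998, from the fit across all genes). Socs5 stayed uncalled in all 12 alternatives, the mouse as a block among them, at 0.35 to 0.46 log2 units. The lowest adjusted p among these alternatives, over edgeR, DESeq2 and limma-voom, was 0.708. The same 3 pairs also differed in B cell markers, 84.8 to 98.8 CPM in tdTomato-positive and 34.2 to 72.3 CPM in tdTomato-negative cells over 8 markers with none at 0. Their part in the Socs5 values was not tested.

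The levels of the members in the mouse cells were ordered per kilobase of all annotated exons of each gene, merged, in GRCm38. This length was 2.891 kb for Socs3, 6.419 kb for Cish and 11.349 kb for Socs6. It is not the length of the transcripts present, which was not measured, and the order depends on it. Socs3 led, with 52.7 ± 9.92 CPM per kilobase in tdTomato-positive cells and 61.2 ± 18.8 in tdTomato-negative cells (SD, n = 3 each). Socs1 followed, with 14.9 ± 3.22 CPM per kilobase in tdTomato-positive cells and 19.1 ± 6.75 in tdTomato-negative cells. The other 6 members lay between 1.03 CPM per kilobase (Socs7) and 3.70 (Socs6) in tdTomato-positive cells and between 1.08 (Socs2) and 4.07 (Cish) in tdTomato-negative cells. In tdTomato-positive cells, Socs6 at 3.70 ± 0.28, Cish at 3.53 ± 0.946 and Socs4 at 3.40 ± 0.405 lay within their spread of each other.

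The genes whose values ran most alike with each inducible member over the 12 lungs were sought among 10897 genes, after centring each gene on its mean within each day. Likeness was the root mean square difference in log2 CPM. For Socs1 these were Bola1, Socs2 and Smtnl2, each at 0.13, where Socs1 itself varied by 0.39. For Socs2 they were Mrpl34, Rpl36 and Nr2f6, from 0.087 to 0.092, and for Cish Aldh1a2, Emc6 and Tma7, from 0.14 to 0.16. Socs3 had no neighbour as close, with Cftr, RT1-A2 (a class I gene with near-identical copies, so its counts are uncertain) and Gtse1 at 0.23 to 0.24, where Socs3 varied by 0.37. This describes 12 libraries that include day 56 WT library 3, the library in which Socs1 and Socs2 were low.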

How the data were processed

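Whole-number gene counts, 1 column per library with replicates kept apart, were deposited by the authors, and per the file headers they are total counts. The submitters' processing notes name the build GRCm38 throughout, although the rat tables use rat symbols. The sources used here do not give the aligner, counter, annotation or strand setting. Columns were matched to labels by name. Depth was 8737138 to 23590070 counts a library, and limits from counts cover counting error only.

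Genes were kept by filterByExpr, normalised with TMM and tested with edgeR 4.0.16 in R 4.3.3 (robust quasi-likelihood fit). Benjamini-Hochberg adjustment covered every gene tested, and calls used an adjusted p below 0.05. CPM are TMM-scaled within a table, or over the libraries of a joint fit where a common scale is named. Joint fits used the symbols common to both tables, 20230 symbols for the lungs of both days and 22071 symbols for day 7 lung with CD4 isolates. The fits were tested on simulated counts with known changes. False calls made up 2.51% of calls in day 7 lung and 6.19% in CD4 isolates, the lowest and highest. Changes of 1 log2 unit were recovered at 69% for the day difference and 94% in day 7 lung, again the lowest and highest. The simulated spread followed the trend across genes and held no outlying library, so such a library was not covered.

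The settings varied were the tool (DESeq2 1.42.0, limma-voom with limma 3.58.1), RLE scaling, no low-count filter, a filter at mean 5 CPM, a replicate block, and omission of each library. Splenic values above ignore the mouse, apart from those given with the mouse as a block. Both splenic fractions come from the same mouse by the labels, which pairs them; their deviations correlated at 0.03, 0.12 and 0.12 across genes.

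The members, gene lists and tests were chosen with earlier results of these data known. Genes named beyond the members are up to 2 called genes with the smallest p in each list, the 3 genes most like a member, and Il6. The result of 1 gene list is not reported here. Promoters came from RefSeq.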

Additional observations from a re-analysis of the deposited data

Results flagged for a closer look

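Socs3 stood out because IL6KO lay on opposite sides of WT on the 2 days. The IL6KO effect at day 56 minus that at day 7 was 1.33 log2 units, with all 3 IL6KO lungs above all 3 WT lungs at day 56 and all 3 below at day 7. The test of this difference had an unadjusted p of 2.64e-05 in the edgeR fit across all genes but did not pass after adjustment over all genes (adjusted p = 0.122).

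The IL6KO effect also differed between CD4 isolates and whole lung at day 7, by the test of the difference, for Socs3 (-0.79 log2 units, edgeR adjusted p = 0.0385) and Socs5 (-0.52, edgeR adjusted p = 0.0302). The Socs3 difference lost its call in 11 of 16 alternatives (adjusted p up to 0.16) and the Socs5 difference in 9 of 16 (adjusted p up to 0.14), and both stayed below 0 in all 16.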

How the results depend on the processing

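Values below are counts of members called out of 8, or log2 fold changes. Of 1483 values recomputed under an alternative, 1336 were classed as unchanged, and 33 changed sign, all of them for members that did not pass the test. For log2 fold changes, unchanged means the same direction and side of the threshold. Counts classed as unchanged could still differ. In CD4 isolates these included 3 and 2 members called (limma-voom) and 784 and 1164 genes called (no filter). With each library left out, members called ranged from 1 to 3 in CD4 isolates (3 with all libraries), 0 to 4 in day 56 lung (0), 0 to 1 in day 7 lung (1), 0 to 2 for the day difference (0), 1 to 2 for day 56 against day 7 in IL6KO (2) and 1 to 3 in WT (1), 5 to 6 for isolates against lung in IL6KO (5) and in WT (6), 0 to 4 for the IL6KO effect in isolates minus lung (2), and 0 in spleen. Leaving out 1 CD4 library leaves an arm with 1 library, which is assumed to vary like the other arm.

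The day difference had 1 member called with DESeq2. The isolate minus lung effect had 1 member called with limma-voom, 0 under the 5 CPM filter and 1 with the replicate block, under which Socs3 had -0.78 (adjusted p = 0.0713). The replicate block changed no other call of a member, and rat samples share only a number: deviations of same-numbered libraries correlated at 0.06, 0.08 and 0.26 in day 7 lung and -0.16, -0.07 and -0.03 in day 56 lung. With the block, 543 genes in place of 300 were called in day 7 lung, 0 in place of 2 in day 56 lung and 3 in place of 1 in spleen. In isolates against lung, Socs6 in IL6KO turned to 0.0033 without a filter and 0.011 with the block, and Socs7 in WT to 0.065 with the block. Genes called by DESeq2 were 565 in day 7 lung, 175 in day 56 lung and 2 in spleen; limma-voom called 4 and no filter 7 in day 56 lung, and limma-voom 600 in place of 949 for isolates minus lung. Without a filter, Cish in CD4 isolates had an adjusted p of 0.0421 and Socs1 in isolates minus lung 0.0492. Genes called with a library left out ranged from 76 to 970 in isolates, 1 to 1268 in day 56 lung and 94 to 372 in day 7 lung. Without day 56 WT library 3, 597 genes in place of 0 were called for the day difference. The causes of these changes were not tested.

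Members that did not pass changed sign when single libraries were left out. The ranges were -0.22 to 0.036 for Socs1, -0.21 to 0.0036 for Socs2 and -0.053 to 0.026 for Socs5 in day 7 lung, -0.0041 to 0.070 for Socs6 in isolates, -0.41 to 0.030 for Socs3 and -0.079 to 0.40 for Socs6 in spleen, and -0.42 to 0.033 for Cish and -0.088 to 0.023 for Socs6 in the day difference. Between days they were -0.041 to 0.17 for Cish, -0.15 to 0.11 for Socs1 and -0.12 to 0.10 for Socs2 in IL6KO, and -0.29 to 0.046 for Socs4 and -0.36 to 0.071 for Socs7 in WT. For isolates against lung they were -0.019 to 0.055 for Socs6 in IL6KO and -0.17 to 0.14 for Socs7 in WT.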
